A study of Mus musculus with 12 samples.

Results

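Integrins are the adhesion receptors with which lymphocytes hold on to other cells and to the matrix around them. The 10 genes described here encode integrin chains known from lymphocyte adhesion and tissue residency: Itgae, Itgb7, Itga4, Itgal, Itgb1, Itgb2, Itgb3, Itgav, Itga1 and Itga2. They were chosen by symbol: a gene was represented by a probe set that carries that symbol and no other, and by the brightest over the 12 arrays where there were several. All 10 were found among the 22180 genes that the arrays named, and all 10 passed the filter on dim genes, as did 16667 genes in all.

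The study measured RNA of mouse T cell populations on Affymetrix whole-transcript arrays, and its design text names the comparison of invariant natural killer T (iNKT) cells between B6 and BALB/c mice. The 5 groups were BALB/c iNKT17 cells (3 arrays), BALB/c ROR- cells (3 arrays), B6 iNKT17 cells (2 arrays), B6 gamma-delta 17 cells (2 arrays) and B6 ROR- cells (2 arrays). The iNKT17 and gamma-delta 17 groups are type 17 cells by their labels, that is, T cells of the kind that make interleukin 17, and the labels do not spell out ROR-. The labels give strain and cell type and no treatment, transgene, organ, age or sorting gate. Nothing in them ties replicates to separate animals. The p-values therefore rest on the spread among these samples alone, and this may be technical. The extraction protocol speaks of frozen tissue although the labels name cells.

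An integrin is a pair of 1 alpha and 1 beta chain, and the pairing sets what it binds. Itgae and Itgb7 encode the receptor for E-cadherin on epithelium, Itga4 pairs with Itgb7 to bind the gut vessel addressin MAdCAM-1 or with Itgb1 to bind VCAM-1 and fibronectin, and Itgal with Itgb2 forms LFA-1, the receptor for the ICAM proteins. Itga1 and Itga2 each pair with Itgb1 as collagen receptors of tissue T cells and NK cells, and Itgav pairs with several beta chains, Itgb3 among them, to bind vitronectin and other matrix proteins.

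The start regions of 4 of these genes are shown because they encode Itgb1 and 3 alpha chains that pair with it, Itga4, Itga1 and Itga2. In the mean of both strains, all 4 fell in iNKT17 cells relative to ROR- cells. In B6 alone, only Itga1 among them reached an adjusted p under 0.05 (limma). The sequences are from RefSeq on build GRCm38.p6, 250 bases before to 50 bases after the gene's start, read 5′ to 3′ on the gene's strand. They cover chr8:128685404-128685703 on the plus strand for Itgb1, chr2:79255176-79255475 on the plus strand for Itga4, chr13:115101915-115102214 on the minus strand for Itga1 and chr13:114932051-114932350 on the minus strand for Itga2. Capitals mark matches, on either strand, to any of 4 motifs of 6 letters: AGGTCA (the core of the ROR element), TGTGGT (RUNX), CAGACA (SMAD) and GGGCGG (the GC box).
Itgb1: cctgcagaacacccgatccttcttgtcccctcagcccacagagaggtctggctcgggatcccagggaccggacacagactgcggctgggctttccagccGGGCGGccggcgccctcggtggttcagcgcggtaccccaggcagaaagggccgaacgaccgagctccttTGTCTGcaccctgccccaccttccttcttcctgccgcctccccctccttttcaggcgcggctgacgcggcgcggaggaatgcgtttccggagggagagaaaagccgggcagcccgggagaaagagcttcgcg
Itga4: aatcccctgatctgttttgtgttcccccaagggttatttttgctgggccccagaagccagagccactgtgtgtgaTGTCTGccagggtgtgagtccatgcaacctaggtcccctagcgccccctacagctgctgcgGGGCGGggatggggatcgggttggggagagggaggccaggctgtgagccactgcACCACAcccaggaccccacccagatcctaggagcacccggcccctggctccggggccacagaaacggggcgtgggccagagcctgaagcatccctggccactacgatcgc
Itga1: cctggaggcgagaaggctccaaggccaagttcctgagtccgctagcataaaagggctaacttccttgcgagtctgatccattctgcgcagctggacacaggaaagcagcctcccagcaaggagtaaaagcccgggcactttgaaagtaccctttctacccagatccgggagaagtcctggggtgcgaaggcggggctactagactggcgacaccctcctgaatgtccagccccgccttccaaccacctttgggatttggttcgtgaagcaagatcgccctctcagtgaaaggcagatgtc
Itga2: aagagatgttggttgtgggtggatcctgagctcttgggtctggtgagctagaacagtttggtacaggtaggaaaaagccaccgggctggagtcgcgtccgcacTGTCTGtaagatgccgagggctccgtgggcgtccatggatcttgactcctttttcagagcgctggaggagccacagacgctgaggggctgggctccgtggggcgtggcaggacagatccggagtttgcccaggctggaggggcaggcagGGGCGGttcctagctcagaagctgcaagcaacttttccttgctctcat

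The Itgb1, Itga4 and Itga2 regions each held the SMAD letters, read as TGTCTG on the minus strand, and the GC box, and the Itga4 region also held the RUNX letters, read as ACCACA. The Itga1 region held none of the 4 motifs. Of 32851 promoters of the same length, 21.0% held the SMAD letters, 35.7% the GC box, 16.8% the RUNX letters and 16.3% the ROR core. A promoter was matched for 6 of the 10 genes: among the others, Itgav held the GC box and Itgb7 held no match, and AGGTCA was in none of the 6. Itga1 and Itga2 are neighbours on chromosome 13, with Pelo and the long noncoding RNA Gm34845 in the same stretch. A match of letters is a description, and binding was not measured here. Itgae, Itgal, Itgb2 and Itgb3 are named only.

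The labels were set against marker genes. The mean log2 level of 7 type 17 genes was 7.95 to 8.11 on the BALB/c iNKT17 arrays, 7.65 to 8.07 on the B6 iNKT17 arrays and 8.44 to 9.16 on the gamma-delta 17 arrays, against 4.51 to 6.0 on the BALB/c ROR- arrays and 4.44 to 4.77 on the B6 ROR- arrays. Of 5 T cell genes, Cd3d, Cd3e, Cd3g and Zap70 lay at 8.50 or above on all 12 arrays, while Cd2 was at 5.25 to 5.79 on the BALB/c iNKT17 arrays, against 9.39 to 9.49 on the BALB/c ROR- arrays. A pair of libraries stood apart. In BALB/c ROR- replicate 2 the type 17 genes Il23r and Blk were at 7.0 and 7.43, while the other 2 arrays of its group had Il23r at 3.05 and 3.37 and Blk at 5.22 and 5.22. In addition, gamma-delta 17 replicate 1 had S100a8, a neutrophil gene, at 9.30 and Cd8a at 8.76, while replicate 2 had them at 2.29 and 5.47. The mean of the 5 neutrophil genes listed was 6.12 and 3.39 on these arrays. Not all of the 5 were high: the group mean of Csf3r lay below 3.45, the 30th percentile of named probe sets. Counts of the 10 genes called that rest on BALB/c ROR- replicate 2 are given with and without it. For gamma-delta 17 replicate 1, differences without it are given too, and replicate 2 is then alone in its group. Other marker lists also moved with the cell types. The mean of 6 type 1 genes was 5.24 to 5.69 on the iNKT17 arrays of both strains, against 8.92 to 9.92 on the ROR- arrays, and that of 4 NK cell genes was 3.43 to 3.79, against 4.75 to 5.20. Cd4 was at 3.81 to 4.09 on the iNKT17 arrays, against 7.30 to 8.47 on the ROR- arrays. The gamma-delta and CD8 lists were higher in iNKT17 cells. The mean of 3 gamma-delta genes was 7.12 to 7.497 on the BALB/c iNKT17 arrays, against 5.63 to 5.92 on the BALB/c ROR- arrays. In B6 it was 6.68 to 6.89, against 5.55 to 5.81 on the ROR- arrays, and 7.86 to 9.05 on the gamma-delta 17 arrays. For 2 CD8 genes it was 5.51 to 5.58 against 5.16 to 5.30 in BALB/c, and 6.18 to 6.53 against 4.64 to 5.13 in B6. The 2 gamma-delta 17 arrays lay apart on several lists. Their means were 4.88 to 8.50 for the CD8 genes, 5.69 to 6.88 for the type 1 genes and 3.95 to 5.25 for 2 alpha-beta genes. The iNKT gene Zbtb16 was lower on the B6 iNKT17 arrays, at 7.89 to 8.13, against 8.61 to 8.66 on the B6 ROR- arrays. Its BALB/c groups overlapped. The part of such other cells in the integrin levels was not tested. The arrays read pooled RNA, so fewer cells of a type and less RNA per cell cannot be told apart.

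Between iNKT17 and ROR- cells, taken as the mean of both strains, 7 of the 10 integrin genes differed: Itgae was higher, and Itga1, Itga2, Itga4, Itgb1, Itgb2 and Itgb3 were lower. Over all genes tested, 12.3% passed in either direction, 6.49% as higher and 5.81% as lower. The median difference of the 10 was -0.55 on the log2 scale, against -0.0035 over all genes. The same 7 genes were called without BALB/c ROR- replicate 2. Here and below, differences are limma estimates on the log2 scale with their standard error (SE), p is adjusted by the Benjamini-Hochberg method over all genes tested, and a gene is called at an adjusted p under 0.05. Levels of different probe sets are not comparable with each other.

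**Figure D1:**
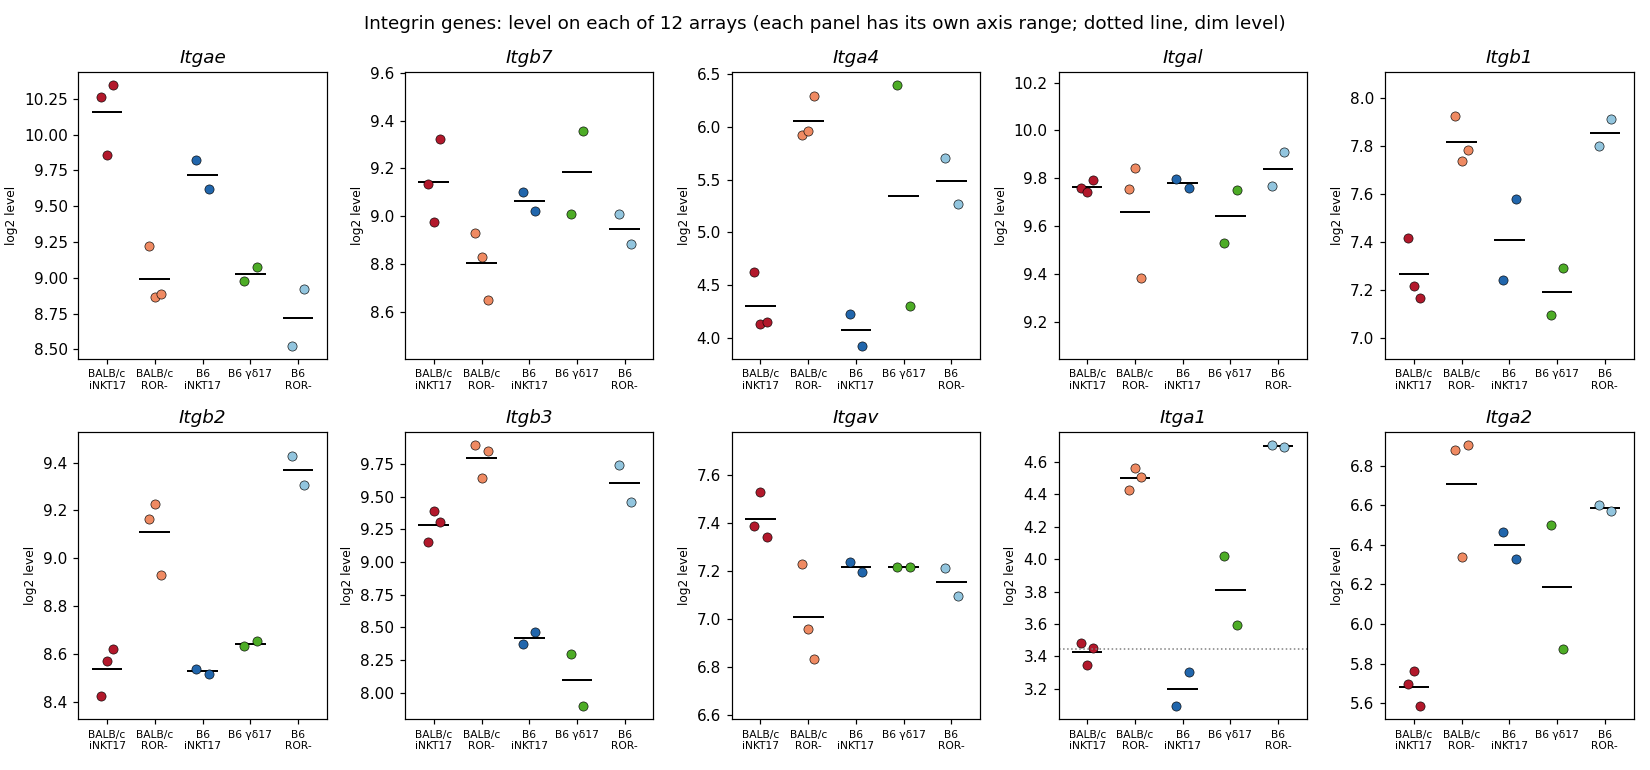
Log2 level (y axis, each panel with its own range) of the 10 integrin genes on each of the 12 arrays, by group (x axis). Points are arrays, bars are group means, and the dotted line in the Itga1 panel is the dim level of 3.45. Itgae stands highest in both iNKT17 groups, while Itgb1, Itgb2, Itgb3 and Itga1 stand highest in both ROR- groups.

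Itgae, which encodes the alpha chain CD103, had log2 levels of 10.26, 9.86 and 10.35 in BALB/c iNKT17 cells, against 9.23, 8.87 and 8.88 in BALB/c ROR- cells. In B6 the levels were 9.82 and 9.62 in iNKT17 cells and 8.98 and 9.08 in gamma-delta 17 cells, against 8.52 and 8.92 in ROR- cells. Every iNKT17 array lay above every other array of its strain. Itgae was 1.08 ± 0.13 higher in iNKT17 than in ROR- cells, 2.12-fold (limma, adjusted p = 1.46e-04). It rose in BALB/c by 1.16 ± 0.16 (adjusted p = 9.01e-04) and in B6 by 1.0 ± 0.20 (adjusted p = 0.0106). The B6 call did not hold when ROR- replicate 1 was left out (0.80, adjusted p = 0.134) or when iNKT17 replicate 1 was (0.90, adjusted p = 0.091). Over the 21 alternative settings the adjusted p in B6 lay between 0.00572 and 0.134.

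Its partner Itgb7, shared with Itga4, ranged from 8.97 to 9.32 in BALB/c iNKT17 cells, against 8.65 to 8.93 in BALB/c ROR- cells. In B6 it was at 9.10 and 9.02 in iNKT17 cells and 9.01 and 9.36 in gamma-delta 17 cells, against 9.01 and 8.88 in ROR- cells. The BALB/c arrays did not overlap between groups, and the B6 groups lay close together. The mean difference of iNKT17 from ROR- was 0.23 ± 0.11, with a 95% interval of -0.0053 to 0.46 (adjusted p = 0.224), so Itgb7 was not called.

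Itga4 had levels of 4.62, 4.13 and 4.15 in BALB/c iNKT17 cells, against 5.92, 5.96 and 6.29 in BALB/c ROR- cells. The B6 levels were 4.22 and 3.92 in iNKT17 cells and at 6.40 and 4.30 in gamma-delta 17 cells, against 5.70 and 5.27 in ROR- cells. No iNKT17 array reached the level of a ROR- array of its strain, while the gamma-delta 17 arrays lay on both sides of the ROR- arrays. The residual spread, 0.61 as an SD, was the widest of the 10 genes, the others lying between 0.11 and 0.25. It came mostly from the gamma-delta 17 arrays, with an SD of 1.48, while the other groups had SDs of 0.20 to 0.31. Itga4 was -1.58 ± 0.31 in iNKT17 against ROR- cells, a 3.0-fold fall (adjusted p = 0.00534), and fell in BALB/c by 1.76 ± 0.40 (adjusted p = 0.0191). The BALB/c call was lost when ROR- replicate 3, iNKT17 replicate 2 or iNKT17 replicate 3 was left out (adjusted p = 0.0789, 0.0658 and 0.0774), and its adjusted p over all settings lay between 1.58e-04 and 0.0789. In B6 the difference was -1.41 ± 0.49, with an interval of -2.48 to -0.35 (adjusted p = 0.145). It was called there at an adjusted p of 0.0144 when only the groups compared were fitted, and of 0.00301 when either gamma-delta 17 library was left out, and its adjusted p over all settings lay between 0.00301 and 0.561.

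**Figure D2:**
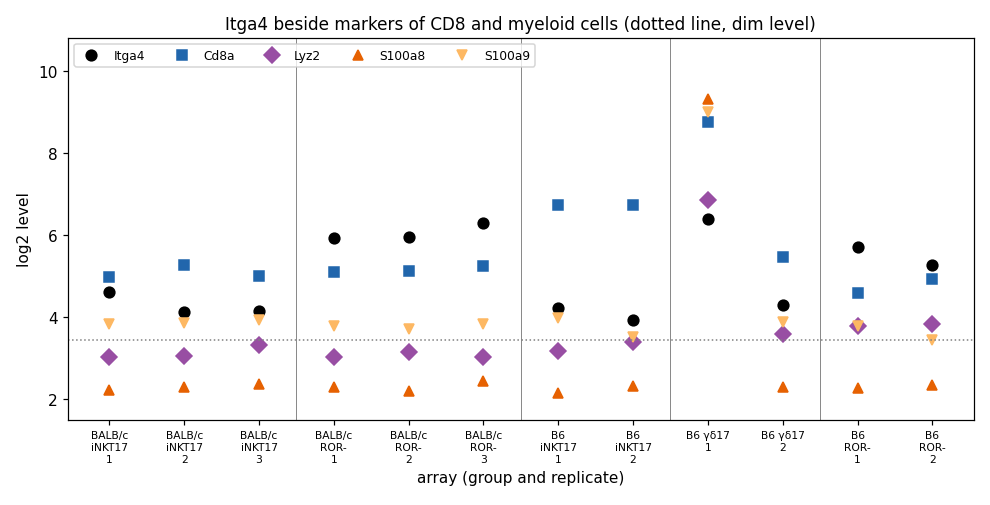
Log2 levels (y axis) of Itga4, Cd8a, Lyz2, S100a8 and S100a9 on each of the 12 arrays (x axis), with the dim level of 3.45 as a dotted line. On B6 gamma-delta 17 replicate 1 all 5 genes are above replicate 2: Itga4 at 6.40 against 4.30, and S100a9 at 9.0 against 3.89. The markers shown are a part of their lists. Lyz2 is 1 of 8 macrophage, monocyte and dendritic cell genes, whose mean was 3.81 to 4.32 on the gamma-delta 17 arrays. Of these 8, Cd14, Itgam and Itgax had gamma-delta 17 means below the dim level.

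Itgb1, the common partner of Itga4, Itga1 and Itga2, was at 7.42, 7.22 and 7.16 in BALB/c iNKT17 cells, against 7.93, 7.74 and 7.79 in BALB/c ROR- cells. Among B6 arrays it was at 7.24 and 7.58 in iNKT17 cells and 7.09 and 7.29 in gamma-delta 17 cells, against 7.80 and 7.91 in ROR- cells. In both strains every type 17 array lay below every ROR- array. Itgb1 fell by 0.50 ± 0.10 over both strains, 1.41-fold (adjusted p = 0.00567), and by 0.55 ± 0.13 in BALB/c (adjusted p = 0.0206). The BALB/c call was lost after centring each array on its median (-0.51, adjusted p = 0.0581) and without BALB/c ROR- replicate 1, iNKT17 replicate 2 or iNKT17 replicate 3 (adjusted p = 0.067, 0.0722 and 0.0968). In B6 the difference was -0.45 ± 0.15 (interval -0.79 to -0.11, adjusted p = 0.149).

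The collagen receptor chain Itga1 was at 3.48, 3.35 and 3.45 in BALB/c iNKT17 cells, against 4.43, 4.57 and 4.51 in BALB/c ROR- cells. In B6, Itga1 was at 3.09 and 3.31 in iNKT17 cells and 4.02 and 3.60 in gamma-delta 17 cells, against 4.70 and 4.69 in ROR- cells. The order of the 3 cell types was the same in every array of B6: iNKT17 lowest, then gamma-delta 17, then ROR-. Itga1 fell by 1.29 ± 0.10 over both strains, 2.44-fold (adjusted p = 4.16e-06), by 1.07 ± 0.13 in BALB/c and by 1.5 ± 0.15 in B6. Both iNKT17 group means, 3.43 in BALB/c and 3.20 in B6, lay below the dim level of 3.45, the 30th percentile of named probe sets, so the size of these falls is uncertain.

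Itga2 was at 5.69, 5.76 and 5.59 in BALB/c iNKT17 cells, against 6.88, 6.34 and 6.90 in BALB/c ROR- cells. B6 arrays had Itga2 at 6.47 and 6.33 in iNKT17 cells and 6.50 and 5.88 in gamma-delta 17 cells, against 6.60 and 6.57 in ROR- cells. The BALB/c groups were far apart and the B6 iNKT17 and ROR- arrays were close, without overlap. Itga2 fell by 1.03 ± 0.18 in BALB/c, 2.04-fold (adjusted p = 0.00438), and the B6 difference was -0.19 ± 0.22 (interval -0.67 to 0.29, adjusted p = 0.795). The mean over strains, -0.61 ± 0.14 (adjusted p = 0.015), did not stay called when ROR- replicate 1 of B6 was dropped (-0.60, adjusted p = 0.0603), nor when iNKT17 replicate 2 of B6 was (-0.57, adjusted p = 0.0664). Its adjusted p over the settings lay between 0.00394 and 0.0664.

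Itgal, the LFA-1 alpha chain, lay between 9.74 and 9.79 in BALB/c iNKT17 cells, against 9.38 to 9.84 in BALB/c ROR- cells. On the B6 arrays Itgal was at 9.80 and 9.76 in iNKT17 cells and 9.53 and 9.75 in gamma-delta 17 cells, against 9.77 and 9.91 in ROR- cells. The groups overlapped and the group means spanned 0.20. The mean difference was 0.024 ± 0.10, with an interval of -0.20 to 0.25 (adjusted p = 0.93).

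Itgb2, the LFA-1 beta chain, was at 8.43, 8.57 and 8.62 in BALB/c iNKT17 cells, against 9.16, 9.23 and 8.93 in BALB/c ROR- cells. In B6, Itgb2 was at 8.54 and 8.52 in iNKT17 cells and 8.63 and 8.65 in gamma-delta 17 cells, against 9.43 and 9.31 in ROR- cells. All type 17 arrays lay below all ROR- arrays, across both strains. Itgb2 fell by 0.71 ± 0.09 over both strains, 1.63-fold (adjusted p = 2.14e-04), by 0.57 ± 0.11 in BALB/c (adjusted p = 0.00854) and by 0.84 ± 0.14 in B6 (adjusted p = 0.00301).

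Itgb3, a partner of Itgav, was at 9.16, 9.39 and 9.31 in BALB/c iNKT17 cells, against 9.90, 9.64 and 9.85 in BALB/c ROR- cells. Among the B6 groups Itgb3 was at 8.38 and 8.46 in iNKT17 cells and 8.29 and 7.90 in gamma-delta 17 cells, against 9.75 and 9.46 in ROR- cells. The B6 type 17 arrays lay below all BALB/c iNKT17 arrays, which in turn lay below the ROR- arrays of both strains. Itgb3 fell by 0.85 ± 0.11 over both strains, 1.80-fold (adjusted p = 2.50e-04), and by 1.19 ± 0.17 in B6 (adjusted p = 0.00115). In BALB/c it fell by 0.51 ± 0.14 (adjusted p = 0.0467), a call that was kept under 8 of the 21 alternative settings, whose adjusted p lay between 0.0331 and 0.168. Itgb3 is also known as a platelet integrin chain with Itga2b. The 7 measured platelet genes had a mean of 3.79 to 4.11 on every array. Of these, Pf4 and Ppbp had group means below the dim level in all 5 groups, and the others in none. Itga2b had group means between 4.12 and 4.41 and was called in no comparison. The part of platelets in the Itgb3 level was not tested.

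Itgav ranged from 7.34 to 7.53 in BALB/c iNKT17 cells, against 6.83 to 7.23 in BALB/c ROR- cells. The B6 arrays had Itgav at 7.24 and 7.20 in iNKT17 cells and 7.22 and 7.22 in gamma-delta 17 cells, against 7.21 and 7.09 in ROR- cells. The BALB/c groups did not overlap, and the B6 groups were close. The mean difference was 0.24 ± 0.10 (adjusted p = 0.145), and that in BALB/c was 0.41 ± 0.12, with an interval of 0.15 to 0.68 (adjusted p = 0.0651). It was called in 1 of the 21 settings, without BALB/c ROR- replicate 1 (0.53, adjusted p = 0.022), and its adjusted p over them lay between 0.022 and 0.453.

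**Figure D3:**
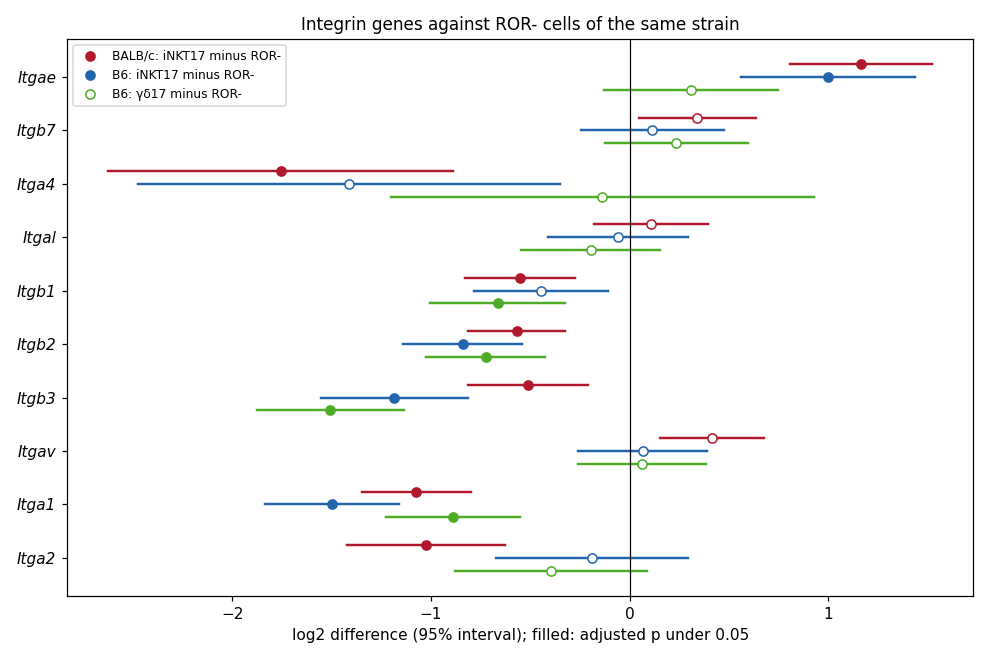
Log2 difference from ROR- cells of the same strain (x axis, lines are 95% intervals) for the 10 integrin genes (y axis), for BALB/c iNKT17, B6 iNKT17 and B6 gamma-delta 17 cells. Filled points have an adjusted p under 0.05. Itgae lies to the right of 0 in both iNKT17 comparisons, while Itga1, Itgb2 and Itgb3 lie to the left in all 3.

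Within each strain, 7 of the 10 genes were called in BALB/c, 1 higher and 6 lower, where 6.97% of all genes passed, 4.06% as higher and 2.91% as lower. Without BALB/c ROR- replicate 2 the same 7 were called in BALB/c, with Itgae at 1.10 and Itga4 at -1.80. In B6 4 were called, 1 higher and 3 lower, where 5.99% of all genes passed, 2.83% as higher and 3.16% as lower. The median difference of the 10 was -0.53 in BALB/c and -0.32 in B6, against 0.0043 and -0.0052 over all genes. The test of whether the difference between cell types itself differed by strain called 0 of the 10 (limma, adjusted p under 0.05), where 0.084% of all genes passed. An unadjusted p under 0.05 was found for 2 of them, out of 669 genes in all. They were Itgb3, whose BALB/c difference was 0.67 ± 0.22 above its B6 difference (adjusted p = 0.826), and Itga2, whose BALB/c difference was -0.84 ± 0.29 relative to B6 (adjusted p = 0.907). The calls in 1 strain and not in the other for Itga4, Itgb1 and Itga2 are thus not shown to differ between strains.

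Between strains, Itgb3 was called in iNKT17 cells: it was 0.87 ± 0.15 higher in BALB/c than in B6, 1.82-fold (adjusted p = 0.0162). No BALB/c iNKT17 array overlapped a B6 iNKT17 array. Over all genes 1.48% were called in this comparison. The Itgb3 call was kept in 18 of the 21 alternative settings. Dropping replicate 1 of B6 ended it (0.82), as did dropping replicate 2 of B6 (0.91) or replicate 3 of BALB/c (0.85, adjusted p = 0.07). The Itgb3 difference itself stayed between 0.81 and 0.93 over the settings. Its adjusted p over the settings lay between 0.00688 and 0.134. Itga2 was at -0.71 ± 0.20 in BALB/c relative to B6 (adjusted p = 0.134) and Itgae at 0.44 ± 0.18 (adjusted p = 0.339), neither called. In ROR- cells 0 of the 10 genes were called between strains, and 0 had an unadjusted p under 0.05 (1990 genes in all did), where 1.22% of all genes passed. The count was also 0 without BALB/c ROR- replicate 2. The interval for Itga4 there reached from -0.40 to 1.54, around a difference of 0.57. Its width came from the spread pooled over all 5 groups. That includes the B6 gamma-delta group, with an SD of 1.48, which is not compared here. The ROR- groups had SDs of 0.20 in BALB/c and 0.31 in B6, and their arrays did not overlap. The interval therefore cannot say how large an Itga4 difference the ROR- arrays alone allow.

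Gamma-delta 17 cells, the other type 17 population, were set against the same B6 ROR- arrays as B6 iNKT17 cells, so the 2 comparisons share their control. The test called 4 genes, all lower, where 6.02% of all genes passed, 2.61% as higher and 3.41% as lower: Itgb3 by -1.51 ± 0.17 (2.84-fold, adjusted p = 2.05e-04), Itga1 by -0.89 ± 0.15 (adjusted p = 0.00406), Itgb2 by -0.73 ± 0.14 (adjusted p = 0.00748) and Itgb1 by -0.66 ± 0.15 (adjusted p = 0.0254). Itgae differed by 0.31 ± 0.20 (adjusted p = 0.482) and Itga4 by -0.14 ± 0.49, with an interval of -1.20 to 0.93. Without gamma-delta 17 replicate 1, the library high for S100a8 and Cd8a, replicate 2 was alone in its group, with no spread of its own. In that fit Itga4, at -1.19, joined the genes called, while Itgb1, at -0.57, lost its call. Itga4 over the settings had an adjusted p between 0.032 and 0.976, and Itgb1 between 0.0225 and 0.167. Itgb1 was also lost without gamma-delta 17 replicate 2 or either ROR- library, and Itgb2 without ROR- replicate 1 (-0.66, adjusted p = 0.0778). The part of other cells in the Itga4 level of gamma-delta 17 replicate 1 was not tested.

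Directly between B6 iNKT17 and gamma-delta 17 cells, 0 of the 10 were called (limma), where 0.168% of all genes passed. Among the 10, 3 had an unadjusted p under 0.05, out of 1417 genes in all: Itgae at 0.69 ± 0.20 (adjusted p = 0.331), Itga1 at -0.61 ± 0.15 (adjusted p = 0.223) and Itga4 at -1.27 ± 0.49 (adjusted p = 0.51). Itga4 was called at -2.32 (adjusted p = 0.00384) without gamma-delta 17 replicate 2, which leaves replicate 1, high for S100a8, alone in its group. Without replicate 1 instead, replicate 2 was alone in its group. Itga4 was then at -0.22, Itga1 at -0.40 and Itgae at 0.64, and these were not called. The adjusted p of Itga4 over all settings lay between 0.00384 and 0.9996.

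Other integrin chains were described from a list of 16, of which 15 were measured and 12 tested. In the mean over strains 3 were called, where 12.3% of all genes passed: Itgb5 and Itga5 rose and Itga6 fell, and the list's median difference was 0.0094. Itgb5, another partner of Itgav, was at 8.55, 8.87 and 8.65 in BALB/c iNKT17 cells, against 5.60, 6.13 and 5.77 in BALB/c ROR- cells. In the B6 groups it was at 8.88 and 8.95 in iNKT17 cells and 8.50 and 8.66 in gamma-delta 17 cells, against 5.63 and 5.39 in ROR- cells. All type 17 arrays stood well above all ROR- arrays. Itgb5 rose by 3.13 ± 0.12 in iNKT17 cells, 8.75-fold (adjusted p = 4.38e-08), and by 3.07 ± 0.18 in gamma-delta 17 cells. Itga5, the fibronectin receptor chain and another partner of Itgb1, averaged 6.68 ± 0.11 in BALB/c iNKT17 cells and 5.37 ± 0.09 in BALB/c ROR- cells (SD, n = 3 each), and rose by 1.42 over both strains (adjusted p = 5.60e-07) and by 1.76 in gamma-delta 17 cells. Itga6, a laminin receptor chain, fell by 0.51 (adjusted p = 0.00439). In gamma-delta 17 cells Itgb4, which pairs with Itga6, rose by 1.17, and Itga6 fell by 0.84, a call lost without gamma-delta 17 replicate 1 (-0.73, adjusted p = 0.0567). Without that library, which leaves replicate 2 alone in its group, the rises in gamma-delta 17 cells were 3.15 for Itgb5, 1.83 for Itga5 and 1.41 for Itgb4.

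**Figure D4:**
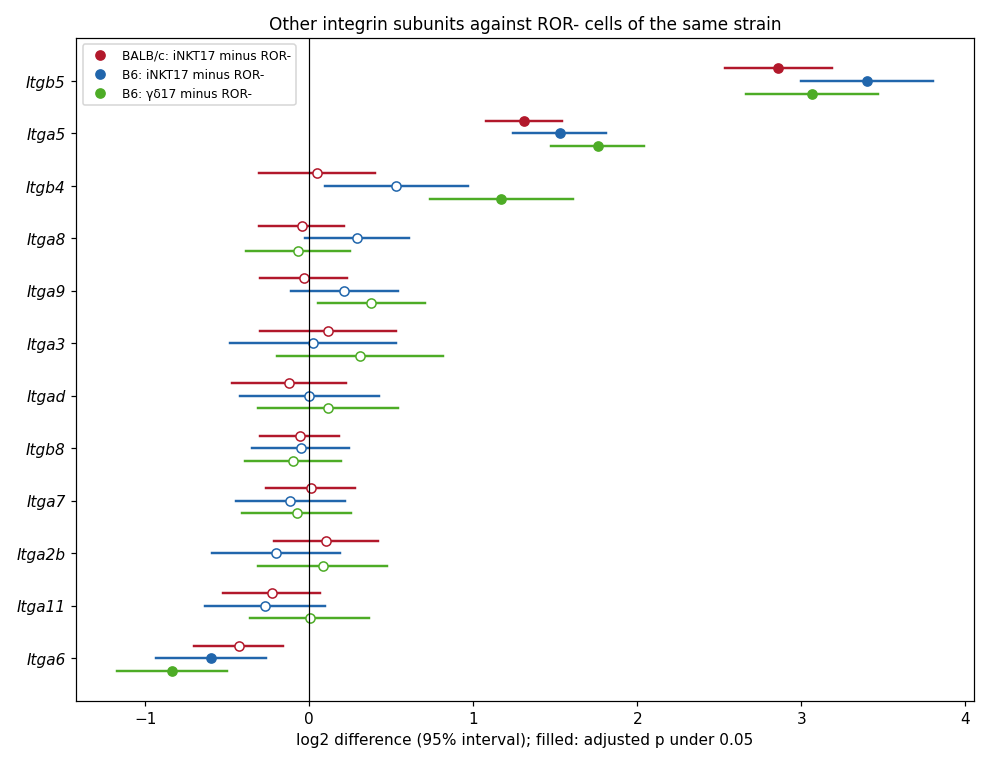
Log2 difference from ROR- cells of the same strain (x axis, lines are 95% intervals) for the 12 other integrin chains tested (y axis), for BALB/c iNKT17, B6 iNKT17 and B6 gamma-delta 17 cells. Filled points have an adjusted p under 0.05. Itgb5 and Itga5 lie to the right of 0 in all 3 comparisons, Itgb5 at 3.07 in gamma-delta 17 cells.

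Genes that switch integrins on or link them to the cytoskeleton gave 11 called of 37 tested in the mean over strains, 5 higher and 6 lower, where 6.49% of all genes passed as higher and 5.81% as lower, with a median of -0.0018. Rasgrp2, which activates Rap1 upstream of integrins, fell by 1.45 (adjusted p = 2.23e-05). The actin crosslinker Actn1 fell by 1.14 and the adaptor Fyb by 0.69, and both calls were lost when B6 ROR- replicate 1 or B6 iNKT17 replicate 2 was left out; that of Actn1 was also lost without B6 ROR- replicate 2. Cib1, which binds an integrin tail in platelets, rose by 0.55 and lost its call when B6 ROR- replicate 1 or B6 iNKT17 replicate 2 was left out. Among the strain comparisons Vcl, encoding vinculin, was 0.80 higher in BALB/c than in B6 in iNKT17 cells and 0.85 higher in ROR- cells. The first of these calls was lost without BALB/c iNKT17 replicate 1 or 3 or B6 iNKT17 replicate 1, and the second without BALB/c ROR- replicate 3 or either B6 ROR- library.

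Of 20 integrin ligand genes tested, 1 rose and 2 fell over both strains, where 12.3% of all genes were called, a share near that of the list, and the median was -0.037. Nid1, a basement membrane protein, rose by 1.64 ± 0.19 (adjusted p = 1.25e-04), and the laminin chain Lama5 fell by 0.99 ± 0.19 (adjusted p = 0.00492). Cdh1, which encodes the E-cadherin bound by the Itgae receptor, fell by 0.41 ± 0.11 (adjusted p = 0.0317). The Cdh1 call was kept in 7 of 12 fits without 1 library. It was lost without replicate 1 of BALB/c ROR- or iNKT17 cells, B6 ROR- replicate 2 or either B6 iNKT17 library. Centring each array on its median also ended it (-0.38, adjusted p = 0.0659), as did a further quantile normalization (-0.37, adjusted p = 0.0562). Of 20 genes of the transforming growth factor beta pathway, a known inducer of Itgae, 2 rose and 4 fell, where 6.49% of all genes rose and 5.81% fell, and the median was -0.042. Furin, a protease that processes the growth factor precursor, rose by 1.91 ± 0.18 (adjusted p = 2.32e-05), and the co-receptor gene Eng rose by 0.90, while the repressors Tgif1 and Smad7 fell by 0.87 and 0.57. These last 3 calls were each lost when certain single B6 libraries were left out. The call of Eng was lost without ROR- replicate 1 (0.89), ROR- replicate 2 (0.90) or iNKT17 replicate 1 (0.70). That of Tgif1 was lost without ROR- replicate 2 (-0.72), and that of Smad7 without ROR- replicate 1 (-0.49) or iNKT17 replicate 2 (-0.475). The co-receptor gene Tgfbr3 fell by 0.51 (adjusted p = 0.0066). Tgfbr1, Tgfbr2 and Smad3 differed by 0.17, -0.26 and 0.05 and were not called.

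Among 18 residency, egress and homing genes, 4 rose and 8 fell over both strains, where 6.49% of all genes rose and 5.81% fell, and the median was -0.12. The egress receptor S1pr1 fell by 4.04 ± 0.27 (adjusted p = 1.52e-06), the chemokine receptor Cxcr3 by 3.21 and the factor Klf3 by 2.18, and the chemokine receptor Ccr6 rose by 2.34. Cd69, which holds S1pr1 inside the cell, differed by 0.80 ± 0.48 and was not called (adjusted p = 0.361). In gamma-delta 17 cells S1pr1 was 7.01 ± 0.78, against 8.29 ± 0.47 in B6 ROR- cells (SD, n = 2 each), and was not called. Between B6 iNKT17 and gamma-delta 17 cells 3 genes were called, all lower in iNKT17 cells. S1pr1 differed by -2.98, a call lost when gamma-delta 17 replicate 1 (-2.43) or either B6 iNKT17 library was left out. Klf3 differed by -2.6497 (adjusted p = 9.28e-05), and by -2.48 without gamma-delta 17 replicate 1. Ccr9 differed by -1.38, a call kept in 13 of the 21 settings. Unlike in iNKT17 cells, Klf3 was higher in gamma-delta 17 than in B6 ROR- cells (0.74, adjusted p = 0.0275). Without gamma-delta 17 replicate 1 this rise was 0.57.

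The genes whose levels ran most like those of a member were found by Pearson's r over the 12 arrays, for the 5 members whose group means spanned more than 1 on the log2 scale. The points share the arrays and the 5 groups, so r is a description. Nearest to Itgae were Ift81 (r = 0.946), Txnrd2 (0.935) and Renbp (0.921). Nearest to Itga4 were Maml3 (0.94), Rbm25 (0.937) and Bach2 (0.934). For Itgb3 they were Malt1 (0.975), Satb1 (0.972) and Ccr4 (0.957), for Itga1 Ms4a6b (0.984), Ms4a4b (0.98) and Cmah (0.977), and for Itga2 Cd2 (0.893), Snhg6 (0.887) and Ptpn2 (0.886).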

How the data were processed

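The authors deposited log2 values for 41345 probe sets on 12 arrays. They were made with oligo, an R package, per the submitters' processing notes. Its version, the normalization, the summarisation and the log base: not given in the sources used here; log2 was taken because oligo writes it. No further normalization was applied, and array medians lay between 4.10 and 4.30.

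Of the probe sets, 23521 had 1 gene symbol in the platform annotation, which can be old, 1814 had several and 16010 had none, and only the first kind was used. Genes entered the test with 2 or more arrays above 3.45, the 30th percentile of named probe sets, which is called the dim level and is no measured background. A group-means model was fitted over all 12 arrays with limma 3.58.1 in R 4.3.3 (7 residual degrees of freedom), for 8 comparisons, and its recovery of known changes was tested on simulated data. The members and the gene lists were chosen with earlier results of these data known. All members are named, and for each list up to 4 called genes per comparison by size of difference. Cd69, Tgfbr1, Tgfbr2, Tgfbr3 and Smad3 were added after their values were seen. The number of arrays limits the precision. Alternatives were rescaling, other filters, variance models and array weights, the mean of probe sets, fitting only the groups compared, a replicate block, and leaving out each array. Some listed genes, such as Itga10, are not analysed here.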

Additional observations from a re-analysis of the deposited data

Results flagged for a closer look

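Itga1 was set apart by its 2 strain differences, which ran opposite ways: every BALB/c iNKT17 array lay above every B6 iNKT17 array, while every BALB/c ROR- array lay below every B6 ROR- array. The difference between them, the interaction, was 0.42 ± 0.20 (limma, adjusted p = 0.999, unadjusted p = 0.0541), so it was not called. The iNKT17 means lay below the dim level. No test for an outlying array was run gene by gene in groups of 2 or 3.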

How the results depend on the processing

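Of 1680 recomputed values of single members over 21 alternatives, 1640 kept their side of the threshold, 33 lost a call and 7 gained one. No called value changed direction, but some uncalled ones did. Itga4 in gamma-delta 17 against ROR- cells, for example, was -0.14 in the main fit and 0.91 at its highest. With 1 array left out at a time, the number of members called lay between 6 and 7 in the mean of strains, 4 and 7 in BALB/c, 3 and 5 in B6, 0 and 1 between strains in iNKT17 cells, 2 and 4 for gamma-delta 17 against ROR- cells, and 0 and 1 for iNKT17 against gamma-delta 17 cells, and was 0 throughout for the interaction and for ROR- cells between strains. The count in BALB/c was 4 without iNKT17 replicate 2 or 3, and that for gamma-delta 17 against ROR- cells was 2 without ROR- replicate 1. Under array weights 2 members were called between strains in iNKT17 cells, Itga2 being added (-0.74, adjusted p = 0.0462). Under the other settings the counts were 7 in the mean, 5 to 7 in BALB/c, 4 to 5 in B6 and 3 to 4 for gamma-delta 17 cells. The causes were not tested.

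Whether the replicate numbers pair the samples could not be decided. Of 21 same-numbered pairs, whose deviations correlated between -0.46 and 0.465, 8 were over 0.1. Within a B6 group the deviations mirror each other, so each r between B6 groups is fixed up to its sign. For same-numbered B6 arrays, r was 0.465 between ROR- and iNKT17 cells. It was -0.0131 between gamma-delta 17 and ROR- cells, and -0.1195 between gamma-delta 17 and iNKT17 cells. With the replicate number as a block, Itgb3 in BALB/c lost its call (-0.51, adjusted p = 0.0659), and the other members kept theirs. Of the list genes, Cdh1 in the mean of strains (-0.41, adjusted p = 0.0534) and Vcl between strains (0.75 in iNKT17 and 0.79 in ROR- cells, adjusted p = 0.0684 and 0.0631) were no longer called, nor were Itga6 in B6 (adjusted p = 0.0627), Stk4 in BALB/c (0.0545), and Rasgrp2 and Ahr in gamma-delta 17 against ROR- cells (0.0548 and 0.0588).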
